A study of Mus musculus with 6 samples.

Results

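The 9 laminin chain genes Lama1, Lama2, Lama3, Lama4, Lama5, Lamb1, Lamb2, Lamb3 and Lamc1 were read out by RNA-Seq in mouse mammary carcinoma cells sorted by lipoprotein uptake. They were chosen by gene symbol, and all 9 were present among the 53379 genes of the count table. Laminin chain genes outside these 9 were not analysed here. The cells were 4T1-T VM cells, a VM-proficient sub-clone of the 4T1 line, so they stand for 1 clone. VM, vasculogenic mimicry, is the forming of perfusable channels by tumor cells. Serum-starved cells took up acetylated low-density lipoprotein (acLDL) bearing Alexa-488 at 10 ug/mL for 4 h, spent 1 h in complete medium and were sorted into the brightest 25% (acLDL-high) and the dimmest 25% (acLDL-low). The sort was done on 3 separate occasions, which gave 3 libraries per population and 6 in all. Both populations carried the acLDL label, and the sources name no knockdown, over-expression or drug for either.

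Laminins are large secreted proteins of basement membranes, each built from an alpha, a beta and a gamma chain that coil together inside the cell. The short arms of the chains link laminins into a sheet, and the globular end of the alpha chain is held by integrins and dystroglycan on the cell surface, so the alpha chain largely sets which receptors a laminin engages. Basement membrane is also the material that periodic acid Schiff staining picks out when VM channels are scored in tumors.

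In these cells 6 of the 9 chains were expressed above 30 CPM (TMM-scaled counts relative to library size) and 3 were at or near the counting floor. None of the 7 chains that could be tested differed between acLDL-high and acLDL-low cells at an adjusted p of 0.05 (edgeR's quasi-likelihood test, replicate number as a block), and 1, Lama3, had an unadjusted p under 0.05, as did 19.4% of all 12572 genes tested. Of these genes 4.75% passed the adjusted threshold, 3.43% as higher and 1.32% as lower in acLDL-high cells. Lama3 and Lamb3 differed far more from one occasion to the next than between the sorted populations. For Lamc1 the range over occasions was only 0.16 on the log2 scale. Its largest difference within a pair was 0.15 and its fitted difference 0.08.

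The library totals lay between 70263372 and 94216786 counts. Epithelial markers were abundant in every library, with a summed level of 2546 to 3964 CPM in acLDL-low and 2770 to 4086 CPM in acLDL-high cells for 6 genes, of which Krt5 was at 0 counts throughout. The summed endothelial markers lay between 1.51 and 2.64 CPM (7 genes, Emcn at 0), the macrophage markers between 9.72 and 12.3 CPM (7 genes, Adgre1 at 0) and the fibroblast and mural markers between 29.1 and 43.4 CPM (8 genes, Lum and Thy1 at 0, Pdgfra giving most of the sum). Of 7 mitosis markers, 5 were higher in acLDL-high cells at an adjusted p of 0.05 (edgeR), against 3.43% of all genes tested. Cdc20 and Mki67 were not called, with log2 fold changes of 0.06 and 0.08 (edgeR adjusted p = 0.578 and 0.397). The sum of the 7 was 1645 to 2017 CPM in acLDL-low and 2041 to 2633 CPM in acLDL-high cells. The part of these markers in the laminin values was not tested. In bulk RNA, fewer expressing cells and less RNA per cell cannot be told apart.

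Promoter windows from RefSeq (GRCm38.p6) were held for 5 of the 9 genes, Lama2, Lama5, Lamb1, Lamb2 and Lamb3, and the last of these had 2 start sites. The 250 bases before the start of 3 of them are shown because these genes mark the extremes of the data, with Lama5 the most counted chain, Lamb3 a chain that varied strongly between occasions and Lama2 a chain at the floor. Capitals mark matches to the GC box GGGCGG on either strand. The windows lie at chr2:180225860-180226109 (minus strand) for Lama5, chr1:193301744-193301993 (plus strand, the first start) for Lamb3 and chr10:27616943-27617192 (minus strand) for Lama2, each written 5′ to 3′ along the gene.
Lama5: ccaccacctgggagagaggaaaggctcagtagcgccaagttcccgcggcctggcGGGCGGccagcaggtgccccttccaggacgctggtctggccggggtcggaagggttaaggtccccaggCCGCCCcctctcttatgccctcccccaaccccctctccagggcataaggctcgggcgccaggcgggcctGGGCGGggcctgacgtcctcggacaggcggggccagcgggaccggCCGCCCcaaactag
Lamb3: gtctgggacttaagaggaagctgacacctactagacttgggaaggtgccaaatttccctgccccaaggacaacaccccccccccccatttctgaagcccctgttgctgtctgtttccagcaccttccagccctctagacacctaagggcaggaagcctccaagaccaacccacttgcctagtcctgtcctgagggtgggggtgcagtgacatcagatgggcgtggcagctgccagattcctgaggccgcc
Lama2: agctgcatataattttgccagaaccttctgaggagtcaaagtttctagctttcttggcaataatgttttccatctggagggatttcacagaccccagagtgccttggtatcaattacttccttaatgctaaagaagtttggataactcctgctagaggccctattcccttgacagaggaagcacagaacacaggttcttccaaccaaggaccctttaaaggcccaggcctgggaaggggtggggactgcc

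The Lama5 window was 72.4% G and C, held 19 CpG dinucleotides and matched the GC box 4 times. The Lamb1 window held 14 CpG and 2 GC boxes. In contrast, the windows of Lamb3 held 2 and 3 CpG, that of Lamb2 held 3 and that of Lama2 held 0, and none of them had a GC box. Among 32851 promoter windows of the same length the median was 6 CpG, and 32.74% held a GC box. The forkhead core TGTTTA was found once, in the window of the second Lamb3 start, and in 12.03% of all windows. All motifs were searched on both strands. The AP-1 site TGANTCA (6.75% of all windows) and the TATA box TATAAA (12.37%) were in none of the 5 genes' windows, and no window held matches to more than 1 kind of motif. A match or its absence describes these letters only. Windows with few CpG belonged to expressed chains (Lamb3, Lamb2) and to an almost undetected one (Lama2) alike.

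Lama5 encodes the alpha5 chain of the laminins of most adult epithelial and vessel basement membranes. The gene lies on chromosome 2 of GRCm38, from 180176373 to 180225859, on the minus strand. Its level was 1039, 849 and 1138 CPM in the acLDL-low libraries of occasions 1, 2 and 3 and 1107, 846 and 1036 CPM in the matched acLDL-high cells. The populations overlapped, and the pairs went different ways, higher in acLDL-high cells on occasion 1, level on occasion 2 and lower on occasion 3. The fitted log2 ratio of acLDL-high to acLDL-low was -0.02 ± 0.05 (SE throughout for fitted log2 ratios, edgeR adjusted p = 0.902), with a 95% interval of 0.917 to 1.07-fold.

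Lama3 encodes the alpha3 chain, which pairs with the beta3 chain in the laminin that anchors epithelial cells at hemidesmosomes. It lies on chromosome 18, from 12333819 to 12583013, and 1.83% of its exon bases are shared with the antisense gene Gm29200, so reads there could belong to either if counting ignored strand. Its levels were 81.3, 171 and 287 CPM in acLDL-low and 86.0, 218 and 297 CPM in acLDL-high cells. Lama3 was higher in the acLDL-high library of all 3 pairs, by 0.08, 0.35 and 0.05 on the log2 scale, while the populations overlapped because the occasions lay far apart. The fitted log2 ratio was 0.16 ± 0.06 (edgeR adjusted p = 0.134), or 11.7% higher, with a 95% interval of 1.03 to 1.215-fold that covers Lama3 alone and not the choice among all genes. Lama3 thus did not pass the threshold over all genes. The estimate rested mostly on occasion 2, without which it was 0.06 (edgeR adjusted p = 0.615), whereas it was 0.20 (adjusted p = 0.0496) without occasion 1 and 0.17 (adjusted p = 0.0428) without the low-count filter.

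The remaining alpha chains were at the floor of detection. Lama1, the alpha1 chain of embryonic basement membranes, had 2 counts in acLDL-high replicate 1 and 0 counts in the other 5 libraries. Lama2, the alpha2 chain of muscle and peripheral nerve, had 4, 2 and 0 counts in acLDL-low and 0, 0 and 4 counts in acLDL-high cells, and its exons share 3.86% of their bases with an antisense gene. Lama4, the alpha4 chain of vessel walls, had 12, 4 and 2 counts in acLDL-low and 24, 0 and 12 counts in acLDL-high cells. Here 3 counts correspond to between 0.0323 and 0.0429 CPM, a floor that covers counting error only. All of these counts were even, as were 71.3% of the 44280 values from 1 to 20 in the table, so low counts may not be independent fragments. Lama1 and Lama2 did not pass the low-count filter. Lama4 passed it in the fit reported, but not in those with no replicate block or without occasion 1. It had at least 10 counts in both libraries of occasion 1 and in acLDL-high replicate 3. Its fitted log2 ratio of 0.80 ± 0.69 (edgeR adjusted p = 0.578) had a 95% interval of 0.618 to 4.92-fold, too wide to show a difference at this depth.

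**Figure D1:**
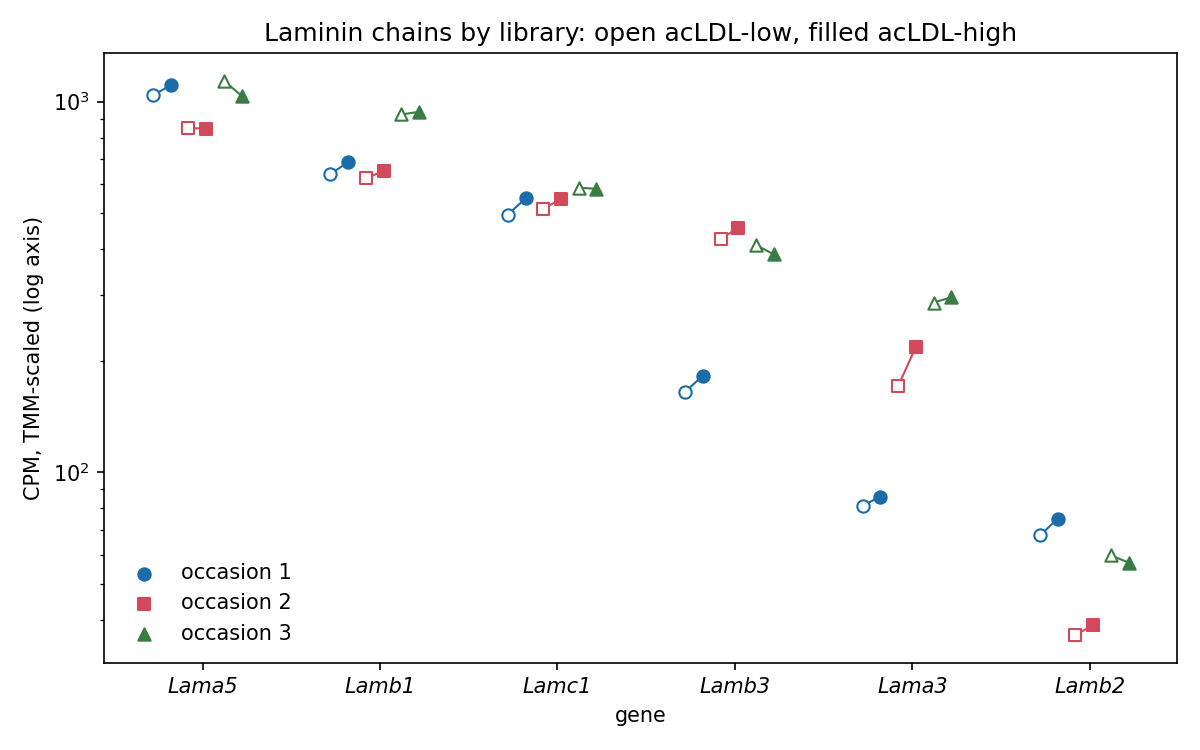
Levels of the 6 expressed laminin chains in each library, in TMM-scaled CPM on a log axis. Open symbols are acLDL-low and filled symbols acLDL-high libraries, lines join the libraries of 1 occasion, and occasion 1 lies far below the others for Lamb3 and Lama3 while occasion 2 is the lowest for Lamb2.

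Lamb1 encodes the widely expressed beta1 chain and lies on chromosome 12, from 31265234 to 31329644. Its acLDL-low libraries held 638, 621 and 923 CPM and its acLDL-high libraries 687, 650 and 939 CPM. It was higher in acLDL-high cells on every occasion, by 0.11, 0.06 and 0.02 on the log2 scale, and highest on occasion 3 in both populations. The fitted log2 ratio was 0.07 ± 0.04 (edgeR adjusted p = 0.448), with a 95% interval of 0.981 to 1.12-fold. Being higher in all 3 pairs was not rare, since it held for 20.9% of all genes tested.

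Lamb3 encodes the beta3 chain, the partner of alpha3 in epithelial anchorage, and lies on chromosome 1, from 193207699 to 193343878. It was at 165, 426 and 410 CPM in acLDL-low and 183, 456 and 387 CPM in acLDL-high cells. Occasion 1 stood below the other two in both populations, and the populations themselves overlapped. The fitted log2 ratio was 0.05 ± 0.05 (edgeR adjusted p = 0.610), with a 95% interval of 0.963 to 1.12-fold and pairs of 0.15, 0.10 and -0.08.

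Lamb2 encodes the beta2 chain, known from the neuromuscular junction and the kidney filter, and lies on chromosome 9, from 108479736 to 108490530. It was the weakest of the 6 expressed chains, at 67.6, 36.5 and 59.7 CPM in acLDL-low and 75.0, 38.7 and 57.1 CPM in acLDL-high cells. Occasion 2 was the low one here, unlike for Lamb3. Its fitted log2 ratio was 0.06 ± 0.05 (edgeR adjusted p = 0.583), with a 95% interval of 0.965 to 1.12-fold.

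Lamc1 encodes the gamma1 chain, shared by most laminins, and lies on chromosome 1, from 153218922 to 153332786, on the minus strand. It was at 496, 513 and 586 CPM in acLDL-low and 548, 547 and 582 CPM in acLDL-high cells. The populations overlapped, and occasion 3 was the highest in both. The fitted log2 ratio was 0.08 ± 0.05 (edgeR adjusted p = 0.402), with a 95% interval of 0.984 to 1.13-fold. A p above the threshold does not show that the populations were alike, and for these chains the intervals give the sizes that remain possible.

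**Figure D2:**
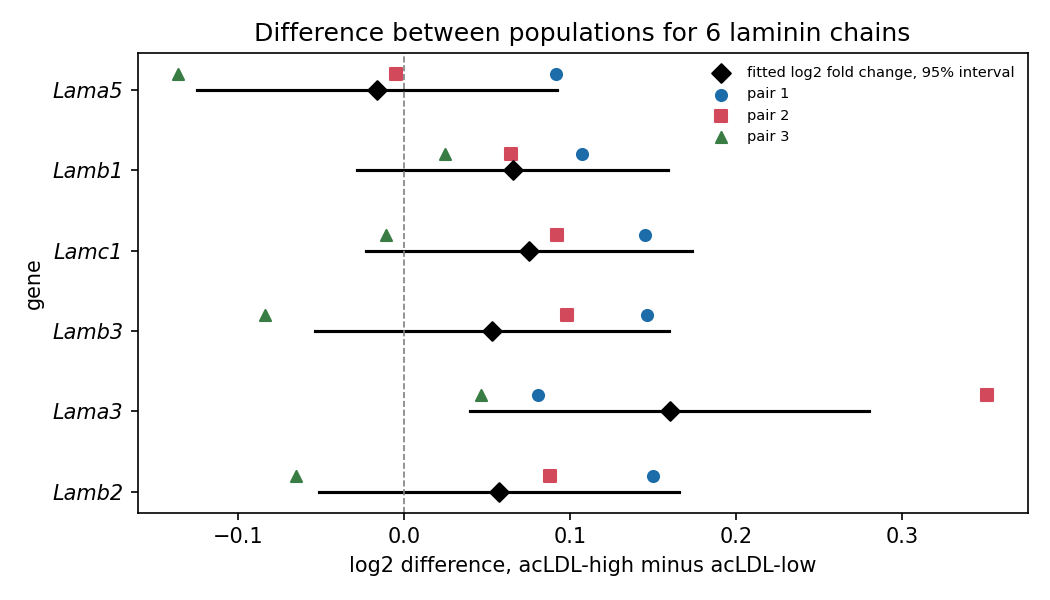
Log2 difference between acLDL-high and acLDL-low cells for the 6 expressed chains (x axis). Black diamonds are the edgeR log2 fold changes with 95% intervals and coloured symbols the 3 single pairs. Apart from that of Lama3, the intervals include 0, and pair 3 is the leftmost symbol for every chain.

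Across the 6 expressed chains the log2 fold changes ran from -0.02 to 0.16 with a median of 0.06, against a median of 0.00 (0.0017) over all genes tested, of which 50.6% were above 0. The ranges of the populations overlapped for these chains, but such ranges ignore the pairing, and the share over all genes was not counted. They also overlapped for genes called higher, such as Ntn1 (9.36 to 23.7 CPM in acLDL-low, 12.6 to 31.5 CPM in acLDL-high cells) and Mmp9 (43.4 to 187 against 59.3 to 232 CPM). The overlap is hence no measure of the difference within pairs. Of the 6 chains 2 were higher in all 3 pairs and 0 were lower in all 3 pairs. Among all genes tested 20.9% were higher and 19.6% were lower in all 3 pairs. The summed level of all 9 chains was 2486, 2617 and 3405 CPM in acLDL-low and 2686, 2755 and 3297 CPM in acLDL-high cells, higher in acLDL-high cells on occasions 1 and 2 and lower on occasion 3.

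Levels of different genes were compared per length, as RPKM (counts per kilobase of merged exons, from the same scaled CPM). Over the 6 libraries Lama5 was at 88.0 ± 11.1, Lamb1 at 74.9 ± 14.9, Lamc1 at 65.9 ± 4.36, Lamb3 at 51.1 ± 19.6, Lama3 at 17.7 ± 8.79 and Lamb2 at 9.17 ± 2.54 RPKM (SD, n = 6 libraries of 3 occasions). Among all tested genes Lama5, Lamb1, Lamc1 and Lamb3 stood between the percentiles 93.12 and 96.64 on this scale. The order of the top 4 did not hold beyond the spread, since Lama5 exceeded Lamb1 in 5 of 6 libraries, Lamb1 exceeded Lamc1 in 5 and Lamc1 exceeded Lamb3 in 4. Lamb3 exceeded Lama3 in 6 of 6 libraries, and Lama3 exceeded Lamb2 in 4, all but those of occasion 1. The first place depends on the length used, because with the longest transcript in place of merged exons Lamb1 rose to 128 RPKM and stood above Lama5 in all 6 libraries.

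The alpha chain message was almost all Lama5 and Lama3. Lama5 made up 92.3%, 82.4% and 78.9% of alpha chain RPKM in acLDL-low cells of occasions 1, 2 and 3 and 92.4%, 78.6% and 76.7% in acLDL-high cells. Lama3 made up nearly all of the rest, at 7.66%, 17.6% and 21.1% in acLDL-low and 7.60%, 21.4% and 23.3% in acLDL-high cells. The share of Lama3 was level on occasion 1 and larger in acLDL-high cells on occasions 2 and 3. Its mean difference was 2.00 percentage points (exact paired permutation test, two-sided p = 0.5, n = 3 pairs, where the smallest possible p is 0.25), and the share was larger in 2 of 3 pairs. The mean difference ran from 1.06 to 3.02 points when 1 occasion was left out.

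Among the beta chains, Lamb1 held 64.1%, 47.0% and 56.4% of the RPKM in acLDL-low and 63.4%, 46.5% and 58.2% in acLDL-high cells. Lamb3 held 24.9%, 48.5% and 37.6% against 25.3%, 49.0% and 36.0%, and Lamb2 between 4.50% and 11.3%. On occasion 2 Lamb3 was level with Lamb1 in both populations by merged exon length. By the length of the longest transcript Lamb1 stayed ahead there, at 53.3% against 43.5% for Lamb3 in acLDL-low cells, and it held 52.7% in acLDL-high cells. The mean differences between populations were 0.196, -0.214 and 0.0179 percentage points for Lamb1, Lamb3 and Lamb2 (exact paired permutation p of 1, 1 and 0.75, n = 3 pairs). Shares within the gamma class were not computed, because Lamc1 was the only gamma chain read here.

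**Figure D3:**
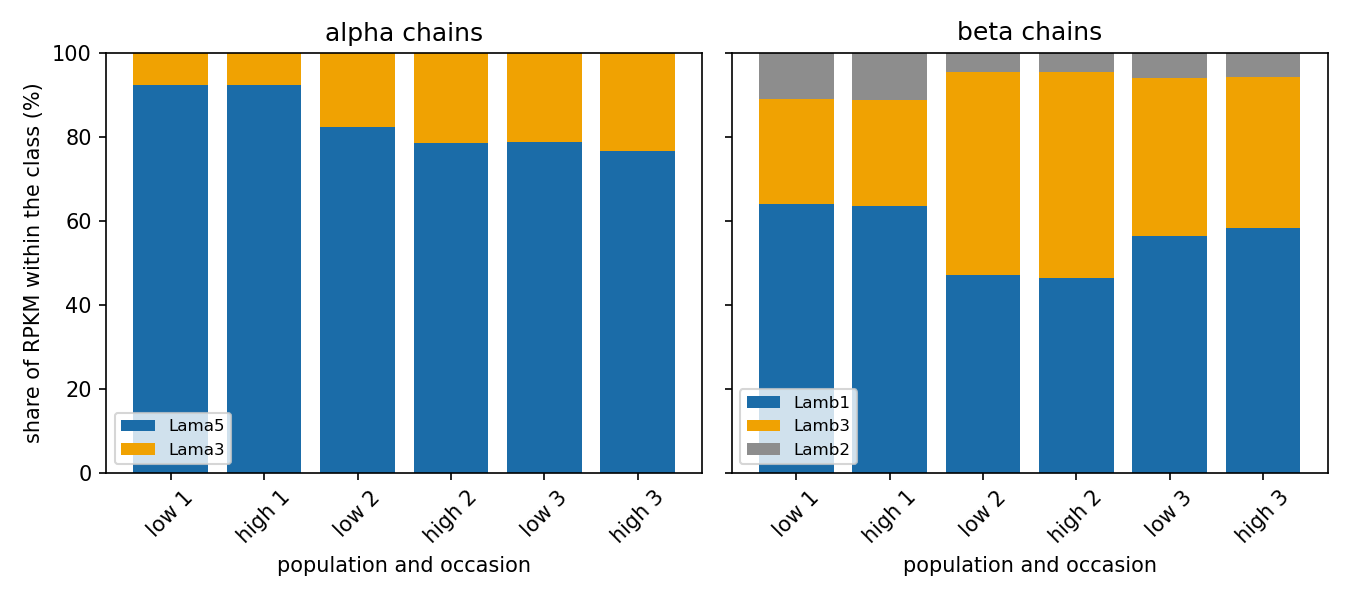
Share of each chain in the summed RPKM of its class (y axis, %), for alpha chains on the left and beta chains on the right, in the 6 libraries ordered by occasion. Lama5 is at 92.3% in acLDL-low and 92.4% in acLDL-high cells on occasion 1. In the same order it is at 82.4% and 78.6% on occasion 2 and at 78.9% and 76.7% on occasion 3. Lama3 and Lamb3 take larger shares on occasions 2 and 3 than on occasion 1.

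The chains differed in how far they varied over the occasions. Averaged over both populations, Lama3 was at 83.7, 194 and 292 CPM on occasions 1, 2 and 3, a 3.49-fold range, and Lamb3 at 174, 441 and 399 CPM, a 2.54-fold range. Lamb2 followed another order, at 71.3, 37.6 and 58.4 CPM (1.90-fold), with its lowest value on occasion 2. Lamb1 spanned 1.47-fold, Lama5 1.28-fold and Lamc1 1.12-fold. Over 9211 genes of at least 8 CPM the median range was 1.30-fold, and Lama3 and Lamb3 lay at the percentiles 98.89 and 97.18 of that distribution, Lamb2 at 91.09 and Lamc1 at 14.07. Both chains of epithelial anchorage were hence lowest on occasion 1, and Lama5 and Lamc1 varied by less than the median gene on this scale. Each replicate number was taken as the same occasion in both populations, which the labels do not state, so these ranges are descriptions with no test. What differed between occasions is not given in the labels either. Without TMM scaling the ranges of Lama3 and Lamb3 were 3.37-fold and 2.33-fold, the range of Lama5 was 1.38-fold, and its highest occasion moved from 3 to 1.

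**Figure D4:**
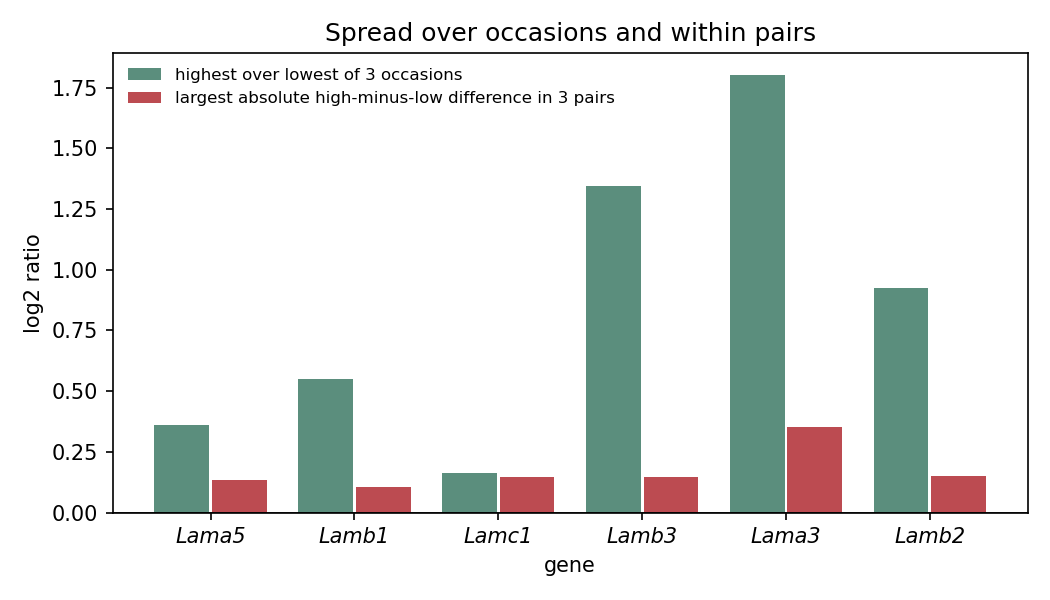
Log2 ratio of the highest to the lowest of 3 occasions (green bars, CPM averaged over both populations) beside the largest absolute difference between acLDL-high and acLDL-low in any of the 3 pairs (red bars). The green bar is taller for all 6 chains, from 1.80 against 0.35 for Lama3 to 0.16 against 0.15 for Lamc1.

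The genes closest to Lama3 in their log2 CPM over the 6 libraries were Rasal2 (Pearson r = 0.997), Dym (0.996) and Myo5b (0.996). Dym and Myo5b lie on chromosome 18, as Lama3 does, and Rasal2 on chromosome 1. The share of tested genes on chromosome 18 was not counted, and any part of the shared chromosome was not tested. The 3 genes were picked from 12572, and the 6 libraries share 3 occasions, so these correlations are descriptions with no test. The log2 fold changes of the same genes between populations were 0.02, 0.07 and 0.17, and their adjusted p were 0.847, 0.502 and 0.192 (edgeR).

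Laminin acts through receptors that hold its alpha chain. The gene lists here and below were chosen with earlier results of these data known. Their counts beside the share over all genes are hence descriptions, not tests. Of 12 receptor and adhesion partner genes, all tested, 0 passed the threshold (edgeR, median log2 fold change 0.06), against 4.75% of all genes. A fold change above 0 was seen for 10 of them, against 50.6% of all genes. An unadjusted p under 0.05 was found for 3, as for 19.4% of all genes tested. Itga3, the integrin alpha3 subunit that binds the laminins containing alpha3 and alpha5, was the most abundant per length at 229 RPKM, with 905, 1530 and 1483 CPM in acLDL-low and 1044, 1519 and 1377 CPM in acLDL-high cells. The fitted ratio was 0.03 ± 0.06 on the log2 scale (edgeR adjusted p = 0.837). Itga6 and Itgb4, which together form the hemidesmosome integrin, had log2 fold changes of 0.00 (0.0025) and -0.08 (edgeR adjusted p = 0.983 and 0.397). The 3 genes under an unadjusted p of 0.05 were Itga1 at 0.21 (adjusted p = 0.0513), Itga2 at 0.16 (0.0919) and Sdc4 at 0.16 (0.0797), of which the integrin subunits are best known as collagen receptors. The count of receptor calls was 1 with DESeq2, where 505 of 11597 genes were called. It was also 1 with DESeq2 size factors (663 of 12572) and with all genes of the count table (666 of 16232). It was 3 without the low-count filter (932 of 15973) and 4 without occasion 2 (869 of 12478).

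Of 15 basement membrane partners, 12 were tested, 1 was higher and 0 were lower (median 0.05), against 3.43% higher and 1.32% lower among all genes tested. The 1 that rose was Col4a5, a collagen IV chain found beside laminin in basement membranes. It was at 65.4, 27.4 and 67.7 CPM in acLDL-low and 74.3, 36.4 and 75.1 CPM in acLDL-high cells, higher in 3 of 3 pairs and 0.24 ± 0.05 in log2 ratio (edgeR adjusted p = 0.0230). Its call was lost without occasion 2 (adjusted p = 0.0654) or occasion 3 (0.0970, both edgeR). The list held 3 calls without occasion 2, where 869 of 12478 genes were called, and 0 without occasion 3 (126 of 12421). Col18a1, which encodes collagen XVIII and was the most abundant partner per length at 99.9 RPKM, was at -0.02 (adjusted p = 0.863). Collagen IV chains Col4a1 and Col4a2, the bulk of the network, were at 0.01 and 0.02, and Nid1, the nidogen that bridges the gamma1 chain to collagen IV, was at only 0.541 CPM in acLDL-low and 0.593 CPM in acLDL-high cells.

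Netrins are relatives of the laminin short arm. Of 6 listed, 5 were in the table and 3 were tested. Among these 3, 1 was called higher, against 3.43% of all genes tested, and this was Ntn1. It was at 23.7, 9.36 and 23.0 CPM in acLDL-low and 31.4, 12.6 and 31.5 CPM in acLDL-high cells, higher in 3 of 3 pairs by 0.41, 0.43 and 0.45. On the log2 scale the fitted ratio was 0.43 ± 0.06 (edgeR adjusted p = 0.000832). Ntn4, which interferes with laminin assembly, was at 0.15 (adjusted p = 0.701).

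Of 8 proteases that cut laminin or lead to its cutting, 5 were tested, 2 were higher and 0 lower (median 0.15). Of all genes tested, 3.43% were called higher and 1.32% lower, which is no test, since the list was chosen with earlier results known. Plau, urokinase, known for converting plasminogen to plasmin rather than for cutting laminin itself, was at 166, 484 and 253 CPM in acLDL-low and 228, 576 and 335 CPM in acLDL-high cells, a log2 ratio of 0.37 ± 0.05 (edgeR adjusted p = 0.000832). Mmp9, a gelatinase that degrades collagen IV, was at 43.4, 50.3 and 187 CPM against 59.3, 69.7 and 232 CPM, a log2 ratio of 0.41 ± 0.05 (edgeR adjusted p = 0.000311). Both were higher in 3 of 3 pairs. Plasminogen itself, Plg, did not pass the low-count filter, and Bmp1, which trims laminin chains after secretion, was at -0.01 (adjusted p = 0.934).

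Dystroglycan holds laminin through a sugar chain built by a set of glycosyltransferases. Of 11 such genes all were tested and 0 passed the threshold (edgeR), against 4.75% of all genes tested. None of them had an unadjusted p under 0.05 (19.4% of all genes), and the median was 0.04. The most abundant per length, Pomgnt1, was at -0.04 (adjusted p = 0.657), and Dag1, dystroglycan, at 0.03 (0.724).

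**Figure D5:**
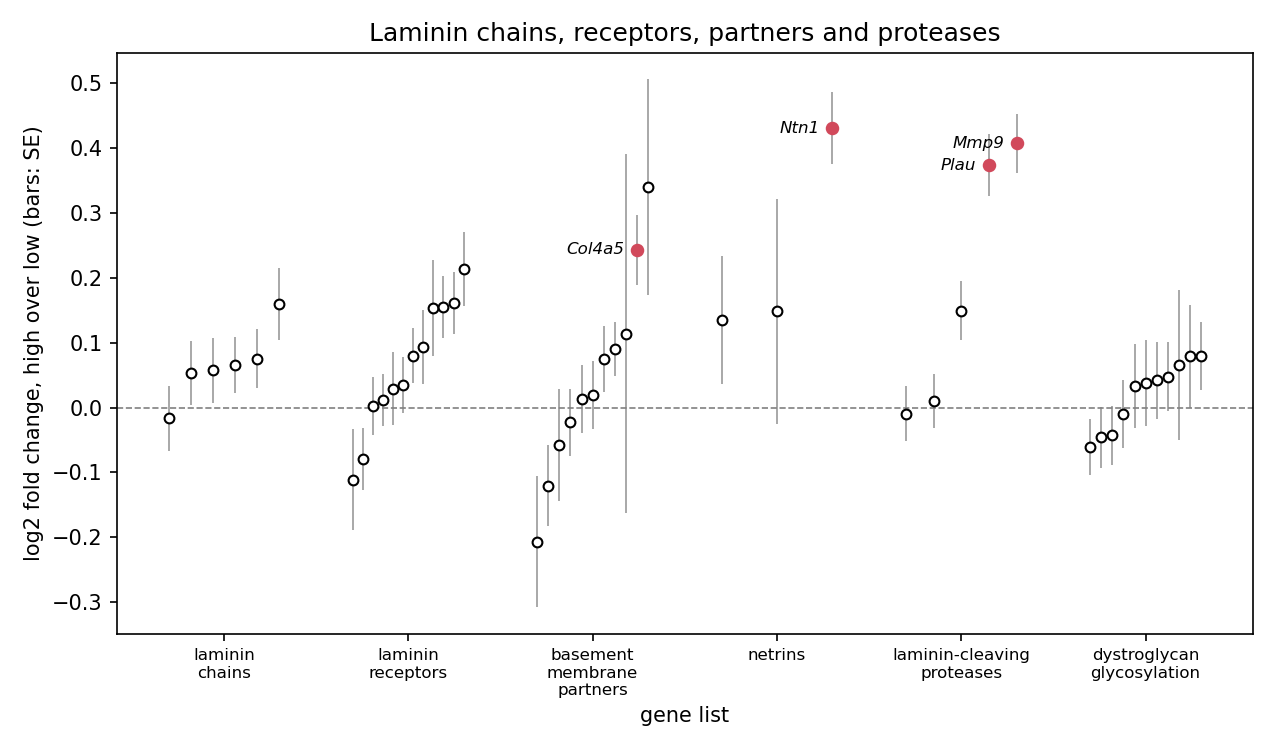
Log2 fold change (acLDL-high over acLDL-low, y axis, bars are standard errors) of the tested laminin chains and 5 lists of receptors, partners, netrins, proteases and glycosyltransferases. Filled red points (Col4a5, Ntn1, Plau and Mmp9) have an adjusted p under 0.05 and open points do not. Lama4 and Col15a1, with standard errors of 0.69 and 0.40, are left out of the plot.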

How the data were processed

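RNA-Seq of the sorted cells was analysed from the gene counts deposited by the authors. Per the submitters' processing notes these were made with STAR (2.5.2a) on mm10 and featureCounts (1.4.3-p1). The annotation release and the strand setting are not given in the sources used here. From the authors' DESeq2 table, which holds mean counts, fold changes and p-values of their own comparison, only gene IDs and symbols were used.

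Of its 15973 protein-coding genes, 12572 passed filterByExpr (minimum count 10). Libraries were scaled by TMM and populations compared with edgeR's quasi-likelihood test (4.0.16, R 4.3.3) with the replicate number as a block, as the study's methods include replicate information. Benjamini-Hochberg adjustment ran over all 12572 genes, with a threshold of 0.05. A standard error is the size of the fitted log2 ratio over root F, and intervals use the t distribution. Differences within pairs are of log2 CPM with a prior count of 2. The replicate number was taken as the occasion. Deviations from the population mean correlated across genes at 0.796, 0.845 and 0.800 for libraries of the same number and between -0.568 and -0.0921 otherwise. No library repeated another (chi-square per degree of freedom of at least 21.3). The sources name separate occasions but not separate thaws, so p-values measure the spread between these samples. Total counts of at least 70263372 make the 3 pairs, not depth, the limit on precision, except for genes near the floor. Positions, exon overlaps and lengths come from GENCODE M21 (GRCm38), the assembly of mm10.

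The chains and lists were chosen with earlier results of these data known. Named genes are the 9 chains, in each list those with an adjusted p under 0.05 and the most abundant per length, and the 3 genes most like the chain with the smallest p. Others named from the lists or as markers were chosen after their values were seen. Alternatives were no block, DESeq2 size factors, DESeq2 (1.42.0), no filter, all genes of the count table and leaving out each pair. For shares and occasions they were another gene length and no TMM scaling.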

Additional observations from a re-analysis of the deposited data

How the results depend on the processing

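Directions and calls of the laminin chains were compared under 8 other fits, which could give 53 fold changes for the 7 tested chains. Of these, 50 kept their direction and their side of the threshold. Lama5 changed sign when occasion 3 was left out, with leave-out values from -0.0696 to 0.0449, and Lama3 passed the threshold without the low-count filter (adjusted p = 0.0428) and without occasion 1 (0.0496). The adjusted p of Lama3 ran from 0.0428 to 1 over its 8 alternatives. The number of chains called was 0 in the fit reported, 1 without the filter, and from 0 to 1 when 1 occasion was left out. Fitted with no replicate block, Lama3 kept a log2 ratio of 0.16 (adjusted p = 1), 0 chains, 0 genes of the lists and 0 of 12329 genes were called, 45 genes had an unadjusted p under 0.05, and Col4a5, Ntn1, Mmp9 and Plau lost their calls. The count over all genes was 597 as reported, 932 without the filter, and from 126 (without occasion 3) to 869 (without occasion 2) when 1 occasion was left out. For the 5 lists together the count was 4 as reported, 8 without the filter, and from 3 to 10 when 1 occasion was left out, the 10 being without occasion 2. Ntn1, Mmp9 and Plau lost their calls in no other alternative. The cause of these changes was not tested. DESeq2 with the block called 0 chains and 505 genes. Lama1 and Lama2 were under the filter in the fit reported, and Lama4 gave no adjusted p in 3 of the alternatives. Of 6 occasion ranges, 5 moved without TMM scaling. The difference in the share of Lama3 ran from 1.06 to 3.02 percentage points, and that of Lama5 from -3.03 to -1.07, when 1 occasion was left out. Both were largest without occasion 1, where they exceeded the SD of the 2 remaining libraries of either population.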

Other observations

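Of the 3 pairs, pair 3 had the lowest difference between acLDL-high and acLDL-low cells for all 6 expressed laminin chains, a pattern noticed after the values were seen. The median difference of the 6 chains was 0.13, 0.09 and -0.04 on the log2 scale in pairs 1, 2 and 3. Pair 3 was also the lowest for 8 of 8 basement membrane partners of at least 8 CPM, whose medians were 0.09, 0.12 and -0.14, among them the collagen IV chains Col4a1 and Col4a2, perlecan (Hspg2) and agrin (Agrn). For the laminin receptors it was the lowest for 7 of 12 genes. Over all 9211 genes of at least 8 CPM the share was 33.7%. Genes of a list are not independent and 1 pair carries the pattern, so it stands as a description of that pair, without a test.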
